A study of Mus musculus with 24 samples.

Results

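Collagens, laminins and the structural proteins bound to them form the extracellular matrix of the ovary, and the transcripts of 57 genes that encode them were compared between 2 mouse lines. The genes were taken by symbol: every collagen chain, every laminin chain, and 12 further genes (Fn1, Dcn, Bgn, Lum, Fbn1, Eln, Sparc, Nid1, Nid2, Hspg2, Aebp1 and Lox). Of these, 36 collagen genes, 10 laminin genes and 11 of the 12 others had a probe set annotated to them alone on the MOE 430A array, a short-oligonucleotide array of mouse transcripts. They make up 57 of 12393 genes and 95 of 20380 probe sets with a single gene. Fbn1, Col24a1, Col27a1, Col21a1, Col8a2, Col23a1, Col28a1 and the collagen VI chains Col6a4, Col6a5 and Col6a6 had no such probe set and were not analysed here.

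Fibrillar collagens give the ovarian stroma, the theca and the ovarian surface their tensile strength. Collagen IV and the laminins build basement membranes, sheets that surround each follicle, separate granulosa from theca cells and underlie blood vessels. The matrix is broken down at the follicle apex when an ovum is shed and rebuilt when the ruptured follicle becomes a corpus luteum, so a metestrous ovary, taken soon after ovulation, holds fresh corpora lutea beside growing follicles.

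FL1 is a line selected over many generations on an index of litter size and litter weight at birth. DUKsi, the control line, came from the same genetic pool, was not selected and was inbred by full-sib mating. No transgene or treatment is named for either line, and all animals were virgin females aged 6 to 9 weeks at metestrus. Each line is represented by 6 pools of whole-ovary RNA, which hold 5 animals each by the number of animals collected, while the labels give 6, and every pool was hybridised to 2 technical arrays, which were averaged. The pool is therefore the replicate (n = 6 per line), and since each condition is 1 line, selection and chance divergence of the lines cannot be told apart.

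The signals are MAS5 values on a linear scale, with a trimmed mean of 500.1 on every array. The SD between the technical arrays of a pool was 0.0859 to 0.192 in log2 units over the more abundant matrix genes. The 3' to 5' signal ratio of beta-actin, which rises when RNA is degraded, averaged 1.67 ± 0.423 over the FL1 pools and 1.27 ± 0.0522 over the DUKsi pools (SD, n = 6 per line), and FL1 pool 3 was highest at 2.45. The lines differed at p = 0.00216, the lowest value that an exact permutation of 6 against 6 pools can give (two-sided). The same ratio of Gapdh was 1.53 ± 0.420 and 1.28 ± 0.146 (exact permutation test, p = 0.203), which did not pass. DUKsi pool 4 stood apart: Ovgp1, the oviduct glycoprotein, had a signal of 3462 there against 205 to 330 in the other DUKsi pools, and the 9 measured markers of surface epithelium and oviduct summed to 7892 against 2044 to 2552. In FL1 the same markers summed to 2917 to 3200. The labelled tissue had the markers of an ovary in all pools, but in different amounts: 8 luteal markers summed to 69014.5 to 78288 in FL1 and 36124 to 53311 in DUKsi, and 8 granulosa markers to 35991 to 40999 in FL1 and 42303 to 49159 in DUKsi. In such whole-organ RNA, fewer cells of a type and less RNA per cell cannot be told apart, and the part of cell composition, RNA quality or DUKsi pool 4 in the results was not tested except where a value without a pool is given.

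Aebp1 and Lox were higher in FL1 and Col9a2 was lower, whereas none of the major fibrillar collagens, collagen VI chains or laminins passed the test. With limma across 22626 probe sets and an adjusted p under 0.01, 4 of the 95 matrix probe sets passed (4.21%), beside 764 of all probe sets (3.38%). Higher in FL1 were 3 matrix probe sets (3.16%, against 1.83% of all), and lower was 1 (1.05%, against 1.55% of all). With a change of at least 1.5-fold required as well, 3 matrix probe sets remained (3.16%, against 2.32% of all). At an adjusted p under 0.05 the count was 16 of 95 (16.8%, against 6.91% of all).

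The median log2 fold change of the 57 genes, 1 probe set each, was 0.00 (29 above and 28 below 0), beside −0.05 over all 12393 genes (5094 above and 7299 below 0). For 37 genes the whole 95% interval of the log2 fold change lay within 1.5-fold in either direction. Among the 34 matrix genes with a mean signal above the median of all genes (309.6), 26 had a higher and 8 a lower mean in FL1, with a median of 0.12. The 6197 genes of the array in that range had a median of −0.01, with 2967 above and 3230 below 0. The pools of a line differed by a median SD of 0.159 (FL1) and 0.148 (DUKsi) in log2 units over these 34 genes, and 17 of their log2 fold changes were larger than 0.159 in size.

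**Figure D1:**
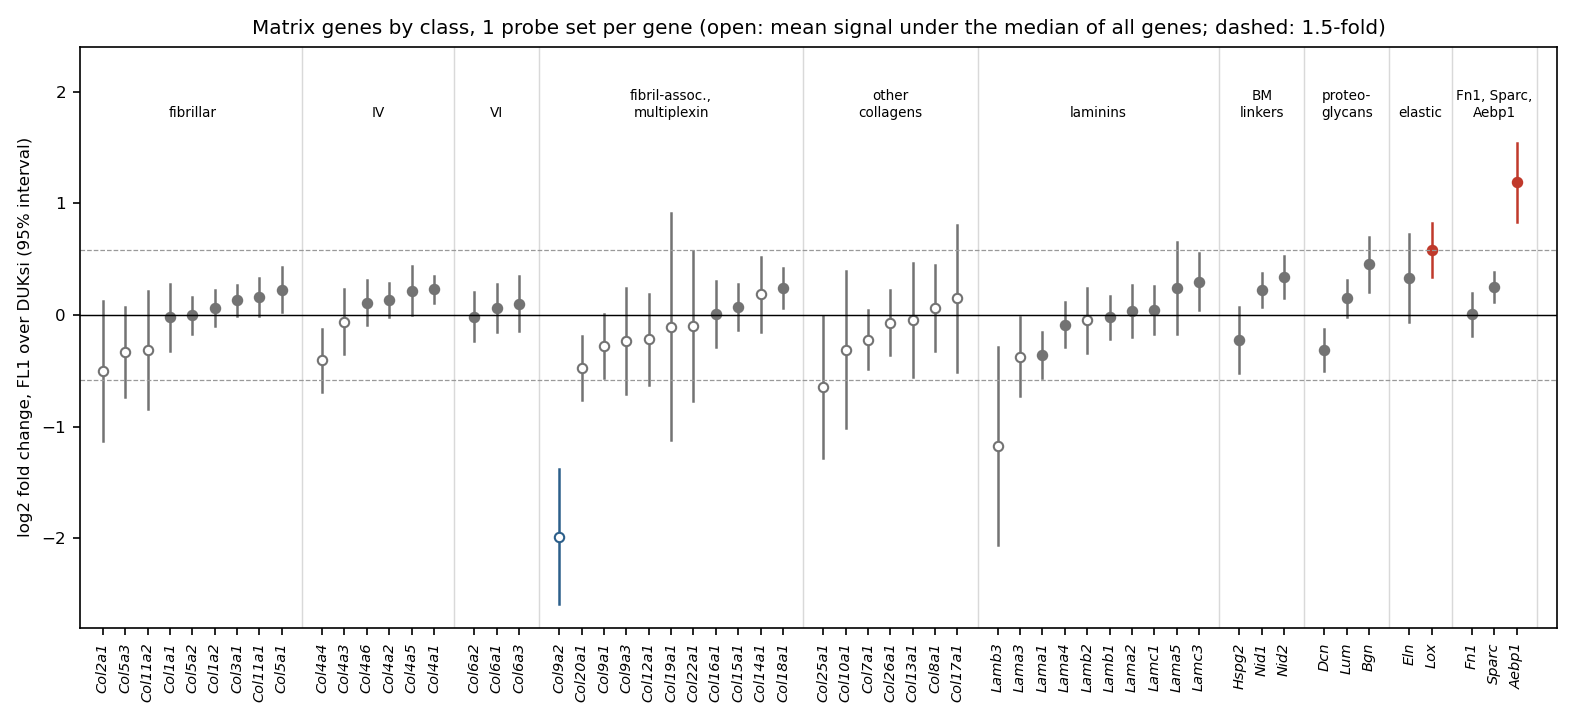
Log2 fold change (FL1 over DUKsi) with its 95% interval from limma for each of the 57 matrix genes, grouped by class, with 6 pools per line. Red and blue mark the 3 genes with an adjusted p under 0.01, open circles mark a mean signal under 309.6, and dashed lines mark 1.5-fold. Aebp1 lies highest at 1.19 and Col9a2 lowest at −1.99, while 38 genes lie within 0.25 of 0.

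Aebp1 encodes the adipocyte enhancer-binding protein 1, whose secreted form binds collagen fibrils. Its signal was 2298 to 4008 in the 6 FL1 pools, with a median of 2995, and 1016 to 1936 in the 6 DUKsi pools, with a median of 1264. The lowest FL1 pool exceeded the highest DUKsi pool. The ratio of the means was 2.25 and the log2 fold change was 1.19 ± 0.166 (SE, n = 6 pools each; limma, adjusted p = 0.000269). A second probe set of Aebp1 ran from 2042 to 3230 in FL1 and from 1110 to 1933 in DUKsi, again without overlap, with a smaller log2 fold change of 0.77 ± 0.142 (SE; limma, adjusted p = 0.00277). DUKsi pool 4 was the highest DUKsi pool and FL1 pool 3 the lowest FL1 pool on both probe sets. Aebp1 was the only matrix gene that passed the test at both of its probe sets.

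Lox encodes lysyl oxidase, the copper enzyme that starts the cross-linking of collagen and elastin. Its brightest probe set had signals of 659 to 726 in FL1 (median 710) and 385 to 670 in DUKsi (median 443). The FL1 pools lay close together, and all exceeded 5 of the 6 DUKsi pools, whose highest value apart from pool 4 was 502. The DUKsi value of 670 belongs to pool 4. The log2 fold change was 0.58 ± 0.113 (SE; limma, adjusted p = 0.00426) and the ratio of means 1.47, under the 1.5-fold threshold. The call was close to the threshold: it was kept without DUKsi pool 4 but lost, at an adjusted p of 0.01047 to 0.01325 by limma, without any 1 of FL1 pools 1, 2, 4 and 6 or DUKsi pools 1, 3, 5 and 6. A dimmer Lox probe set had a log2 fold change of 0.44 ± 0.138 (SE; limma, adjusted p = 0.0712), and the dimmest, with mean signals of 23.3 and 27.0, one of −0.31 ± 0.515 (SE; limma, adjusted p = 0.792).

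Eln encodes tropoelastin, the elastin precursor on which lysyl oxidase acts. Its signal was 599 to 860 in FL1 and 458 to 533 in 5 DUKsi pools, but 1111 in DUKsi pool 4. Over all pools the log2 fold change was 0.33 ± 0.186 (SE; limma, adjusted p = 0.347). Without DUKsi pool 4 no DUKsi pool reached the lowest FL1 pool, and the log2 fold change was 0.53 (limma, adjusted p = 0.00537). The 10 smooth muscle and pericyte markers summed to 27655 in that pool and to 21265 to 24377 in the other DUKsi pools, against 21895 to 24342 in FL1. Among the DUKsi pools, Acta2, Tagln, Myh11, Cnn1, Des and Smtn were highest in pool 4, while Myl9, Rgs5, Pdgfrb and Cspg4 were not. The part of these cells in the Eln value was not tested. At the brightest probe sets of Eln and Lox, DUKsi pool 4 held the highest DUKsi value, so leaving it out widens the difference by itself. Both of these elastic fibre genes had lower signals in the other 5 DUKsi pools than in any FL1 pool. The dimmer probe sets of both genes overlapped, and that of Eln, with mean signals of 62.4 and 53.0, had a log2 fold change of 0.18 ± 0.380 (SE; limma, adjusted p = 0.841).

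Col9a2 encodes a chain of collagen IX, a collagen known from cartilage that sits on the surface of fibrils. Its signal was 23.7 to 91.2 in FL1 (median 57.0) and 161 to 260 in DUKsi (median 208). All FL1 pools were below all DUKsi pools. The FL1 mean was 0.277 of the DUKsi mean, and the log2 fold change was −1.99 ± 0.285 (SE, n = 6 pools each; limma, adjusted p = 0.000351). These are dim signals: 2 of the 6 FL1 values lie under 48.4, the 20th percentile of all signals, and the deposited table holds no detection calls. The log2 fold change was −2.39 (limma, adjusted p = 0.0197) on the first technical array of each pool alone. The other chains of the collagen IX trimer, named here after their values were seen, did not pass: Col9a1 had a log2 fold change of −0.28 ± 0.135 (SE; limma, adjusted p = 0.264), and Col9a3 was at mean signals under 28 in both lines.

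**Figure D2:**
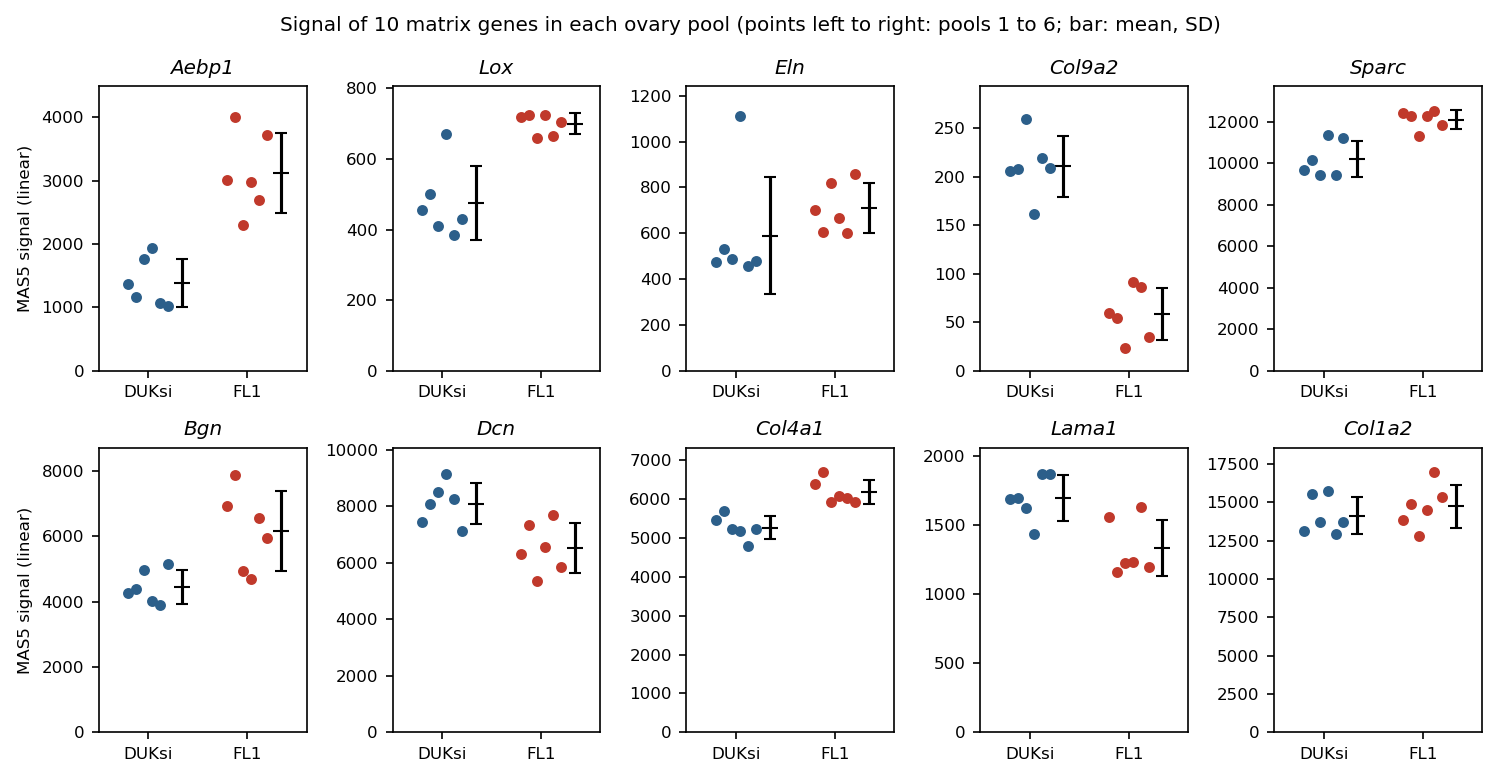
Linear MAS5 signal of 10 matrix genes in each of the 6 DUKsi (blue) and 6 FL1 (red) pools, in pool order from left to right, with the mean and SD beside the points. FL1 and DUKsi pools do not overlap for Aebp1, Col9a2 and Col4a1. DUKsi pool 4 lies far above the other DUKsi pools for Eln (1111) and Lox (670).

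The sequences just before the transcription start of Aebp1 and Col9a2 are shown because these are the genes with the largest differences among those that passed. They are the 250 bases upstream of the start in RefSeq on GRCm38.p6, both on the plus strand, at chr11:5861616-5861865 and chr4:121039316-121039565. Capitals mark the letters GGGCGG, the core of a GC box, on either strand.
Aebp1: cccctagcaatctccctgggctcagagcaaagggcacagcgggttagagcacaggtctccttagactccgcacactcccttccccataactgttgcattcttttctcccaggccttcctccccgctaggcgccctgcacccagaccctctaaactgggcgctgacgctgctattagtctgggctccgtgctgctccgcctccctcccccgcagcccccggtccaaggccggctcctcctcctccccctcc
Col9a2: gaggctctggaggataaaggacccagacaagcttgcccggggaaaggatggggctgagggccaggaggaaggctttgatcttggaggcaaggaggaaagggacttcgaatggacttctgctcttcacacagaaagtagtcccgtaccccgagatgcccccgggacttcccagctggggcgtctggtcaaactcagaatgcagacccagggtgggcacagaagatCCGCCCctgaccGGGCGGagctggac
The Col9a2 window holds GGGCGG at −26 on the reverse strand and at −14 on the forward strand, counted from the start, and the Aebp1 window holds none. Their GC content is 60.4% and 64.4%, against a median of 52.4% over all windows. Of the 57 matrix genes, 37 had entries, with 41 windows in all. On either strand GGGCGG was in 51.2% of these windows and in 32.7% of all 32851 windows of the table, CCAAT in 34.1% and 33.9%, and TATAAA in 12.2% and 12.4%. None of these motifs contains another, and a match of letters is a description of the sequence only.

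None of the 9 fibrillar collagen genes passed the test. Their log2 fold changes ran from −0.50 for the dim Col2a1 to 0.22 for Col5a1, with a median of −0.00. Col1a2, a chain of collagen I, had signals of 12827 to 17001 in FL1 (median 14709) and 12912 to 15732 in DUKsi (median 13723). The ranges overlap almost completely, and the log2 fold change was 0.06 with a 95% interval of −0.10 to 0.22 (limma, adjusted p = 0.716). Col3a1, the sole chain of collagen III, had signals of 9856 to 10832 in FL1 and 8271 to 10922 in DUKsi, with a log2 fold change of 0.13 and an interval of −0.01 to 0.27 (limma, adjusted p = 0.292). Both intervals lie well inside 1.5-fold. In DUKsi pool 4 the fibrillar collagens lay 0.28 above their means over all pools (median over the class, log2 units), the highest of the 12 pools.

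Collagen V, which sets the diameter of collagen I fibrils, gave discordant readings at Col5a1. Its brightest probe set had signals of 1158 to 1475 in FL1 and 978 to 1418 in DUKsi, a log2 fold change of 0.22 ± 0.0947 (SE; limma, adjusted p = 0.194), and a second one of 0.04 ± 0.0820 (SE; limma, adjusted p = 0.833). The third was at 38.8 to 296 in FL1 and 328 to 408 in DUKsi, without overlap, and had a log2 fold change of −1.37 ± 0.346 (SE; limma, adjusted p = 0.0251). It was lowest in FL1 pool 3, the pool with the highest beta-actin ratio. The next lowest FL1 signal, 124, was in pool 6 (ratio 1.74), and the highest was in pool 2 (ratio 1.32). This probe set passed without FL1 pool 3 (−0.99, adjusted p = 0.00165 by limma) and without FL1 pool 2 (−1.58, adjusted p = 0.00904 by limma). With the beta-actin ratio as a covariate it did not pass, and the part of RNA quality in these signals was not tested. Within pools, the log2 difference of the first and of the second probe set over the third was larger in FL1 than in DUKsi, by 1.59 (95% interval 0.72 to 2.47) and 1.41 (0.53 to 2.29). Both differences passed (two-sided exact permutation test, adjusted p = 0.0317 for each over 44 pairs of probe sets).

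Aebp1 and Col11a1 were the other matrix genes with probe sets that moved unequally. The 2 Aebp1 probe sets differed by 0.41 (95% interval 0.23 to 0.60; exact permutation test, adjusted p = 0.0317), both in the same direction. Col11a1, a chain of the minor fibrillar collagen XI, had log2 fold changes of 0.16 ± 0.0815 and −0.32 ± 0.121 (SE; limma, adjusted p = 0.288 and 0.140), a difference of 0.49 (95% interval 0.16 to 0.81; exact permutation test, adjusted p = 0.0476). These 4 of 44 pairs passed at an adjusted p under 0.05. With a pool left out, 462 regroupings remain, and without DUKsi pool 1, 3, 4, 5 or 6 the Aebp1 and Col5a1 pairs had p = 0.00433, which is 2 of the 462, and an adjusted p of 0.0635 (exact permutation test). The differences themselves hardly moved there, at 0.37 to 0.44 for Aebp1 and at 1.54 to 1.67 and 1.37 to 1.48 for Col5a1. The Col11a1 pair did not pass there either (exact permutation test, adjusted p = 0.0952), at a difference of 0.45 to 0.50. On the first and the second technical array alone its adjusted p was 0.0952 and 0.106 (exact permutation test).

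**Figure D3:**
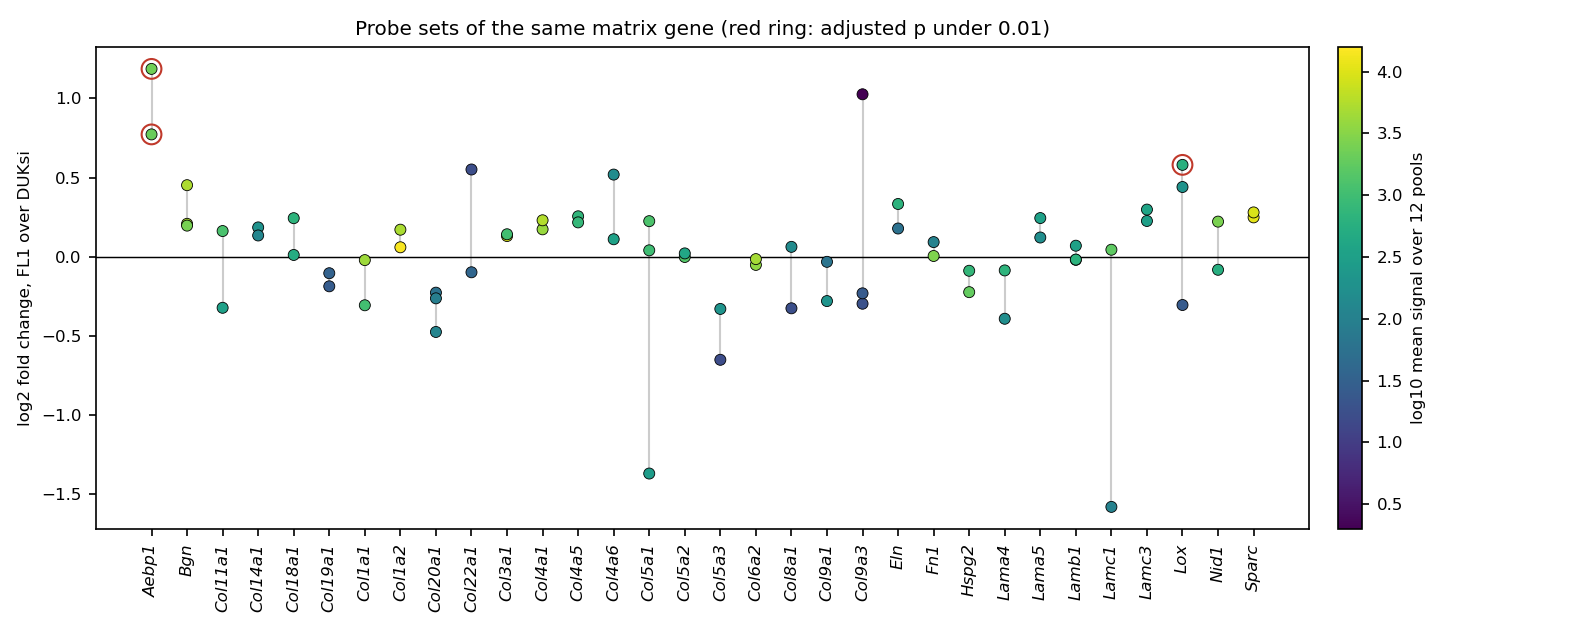
Log2 fold change (FL1 over DUKsi) of every probe set of the 32 matrix genes that have more than 1, coloured by the log10 mean signal over 12 pools, with a red ring where the adjusted p was under 0.01. Col5a1 spreads from 0.22 to −1.37, and the wide spreads of Col9a3 and Col22a1 come with dim probe sets.

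Among the basement membrane genes, collagen IV had a median log2 fold change of 0.12 over 6 genes, none of which passed. The values ran from −0.41 for the dim Col4a4 (limma, adjusted p = 0.0822) to 0.23 for Col4a1. Col4a6 had 0.11 at its brighter probe set and 0.52 at its dimmer one (limma, adjusted p = 0.560 and 0.0305). Col4a4 and Col4a6 were named after their values were seen. Col4a1, a chain of the collagen IV found in nearly all basement membranes, had signals of 5912 to 6678 in FL1 (median 6043) and 4779 to 5673 in DUKsi (median 5230). The pools did not overlap, and the log2 fold change of 0.23 ± 0.0571 (SE; limma, adjusted p = 0.0224) was just outside the threshold. Its other probe set had 0.17 ± 0.0912 (SE; limma, adjusted p = 0.315). Col4a2, which joins Col4a1 in the same trimer, had signals of 2676 to 3322 in FL1 and 2423 to 2915 in DUKsi, with a log2 fold change of 0.14 ± 0.0710 (SE; limma, adjusted p = 0.306). The difference between these chains was 0.09 (95% interval −0.01 to 0.19; exact permutation test, adjusted p = 0.258 over 14 pairs of chains or related proteins).

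Laminins are trimers of an alpha, a beta and a gamma chain, and none of the 10 chains measured passed the test (median log2 fold change −0.03). Their log2 fold changes ran from −1.17 for Lamb3, at dim mean signals of 22.3 in FL1 and 46.1 in DUKsi, to 0.30 for Lamc3. Lamc1, the gamma chain of most laminins, had signals of 1367 to 2181 in FL1 (median 1696) and 1561 to 1818 in DUKsi (median 1636). The FL1 pools spread on both sides of the DUKsi range, and the log2 fold change was 0.04 with a 95% interval of −0.17 to 0.26 (limma, adjusted p = 0.857). A dim second probe set of Lamc1, at 18.3 to 238 in FL1 and 44.6 to 206 in DUKsi, had a log2 fold change of −1.58 ± 0.553 (SE; limma, adjusted p = 0.108). The difference between the probe sets was 1.63 (95% interval 0.30 to 2.95; exact permutation test, adjusted p = 0.180). Lama1, an alpha chain known from the early embryo and from some adult epithelia, had signals of 1160 to 1628 in FL1 (median 1230) and 1435 to 1872 in DUKsi (median 1692). In FL1, 4 pools were below all DUKsi pools and 2 overlapped them. The log2 fold change was −0.36 ± 0.0964 (SE; limma, adjusted p = 0.0358).

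Of the proteins that link the laminin and collagen IV networks, Nid1 (nidogen 1) had signals of 2601 to 3179 in FL1 and 2116 to 2729 in DUKsi, with a log2 fold change of 0.22 ± 0.0718 (SE; limma, adjusted p = 0.0816). A dimmer Nid1 probe set had −0.08 ± 0.143 (SE; limma, adjusted p = 0.799). Nid2, named here after its values were seen, had 0.34 ± 0.0892 (SE; limma, adjusted p = 0.0298). Hspg2, which encodes perlecan, had signals of 1054 to 2256 in FL1 and 1618 to 2117 in DUKsi, with a log2 fold change of −0.22 ± 0.137 (SE; limma, adjusted p = 0.397). FL1 had both the lowest and the highest Hspg2 value of the 12 pools. Col15a1 and Col18a1, the multiplexins of vascular and epithelial basement membranes, had log2 fold changes of 0.07 ± 0.0978 and 0.24 ± 0.0838 (SE; limma, adjusted p = 0.728 and 0.103). Among the other collagens, anchoring-fibril Col7a1 and Col8a1 of vessel walls were dim, with log2 fold changes of −0.22 ± 0.123 and 0.06 ± 0.182 (SE; limma, adjusted p = 0.347 and 0.888).

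Collagen VI forms beaded filaments around cells. Col6a1 had signals of 4797 to 6011 in FL1 (median 5745) and 4069 to 6900 in DUKsi (median 5360), and Col6a2 signals of 3978 to 5484 and 3727 to 6123. Their log2 fold changes of 0.06 ± 0.0998 and −0.02 ± 0.104 (SE; limma, adjusted p = 0.783 and 0.957) were within the spread of the pools. DUKsi spanned the wider range, with class deviations of 0.34 in its pool 4 and −0.33 in its pool 1 (log2 units). The log2 ratio of Col6a1 to Col6a2, chains of 1 trimer, differed by 0.08 between the lines (95% interval −0.03 to 0.18; exact permutation test, adjusted p = 0.323), which did not pass.

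**Figure D4:**
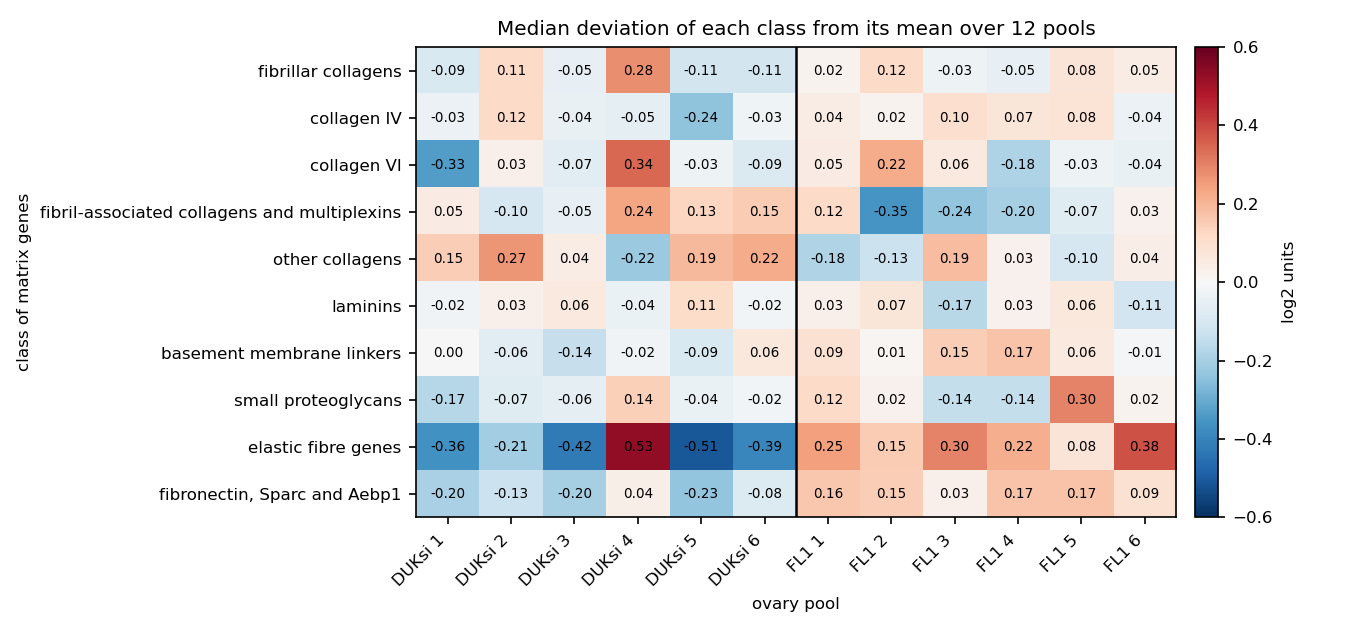
Median deviation of the genes of each class from their means over the 12 pools, in log2 units, for the 6 DUKsi pools on the left and the 6 FL1 pools on the right of the black line. DUKsi pool 4 is high for fibrillar collagens (0.28), collagen VI (0.34) and elastic fibre genes (0.53), and the other 5 DUKsi pools are low for elastic fibre genes.

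Decorin and biglycan, the small leucine-rich proteoglycans that coat collagen fibrils, had means that differed in opposite directions. Dcn had signals of 5368 to 7707 in FL1 (median 6433) and 7139 to 9146 in DUKsi (median 8158), a log2 fold change of −0.32 ± 0.0892 (SE; limma, adjusted p = 0.0441). The brightest Bgn probe set had signals of 4687 to 7866 in FL1 (median 6251) and 3908 to 5161 in DUKsi (median 4324), a log2 fold change of 0.45 ± 0.117 (SE; limma, adjusted p = 0.0292), and the others had 0.21 and 0.20. For Dcn and this Bgn probe set the ranges of the lines overlapped in part, and at the Bgn probe set with 0.21 they did not overlap. The log2 ratio of Dcn to Bgn was 0.77 units lower in FL1 (difference −0.77, 95% interval −1.08 to −0.46), the lowest p of the 14 pairs compared (exact permutation test, p = 0.00433, adjusted p = 0.0606), and this did not pass. It passed without FL1 pool 3 (adjusted p = 0.0455, exact permutation test) or DUKsi pool 6 (adjusted p = 0.0303).

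Fn1, which encodes fibronectin, had a log2 fold change of 0.00 with a 95% interval of −0.19 to 0.20 (limma, adjusted p = 0.985), from signals of 2568 to 3184 in FL1 and 2487 to 3705 in DUKsi. Sparc, a collagen-binding matricellular protein also called osteonectin, had signals of 11329 to 12502 in FL1 (median 12277) and 9420 to 11372 in DUKsi (median 9927). Only the lowest FL1 pool and the highest DUKsi pool overlapped. Its probe sets had log2 fold changes of 0.25 ± 0.0635 and 0.28 ± 0.0676 (SE; limma, adjusted p = 0.0267 and 0.0189). At both probe sets FL1 pool 3 was the lowest FL1 pool and DUKsi pool 4 the highest DUKsi pool, so leaving them out widens the difference by itself. Without these pools together both probe sets passed, at 0.30 and 0.33 (limma, adjusted p = 0.00889 and 0.00925). Neither passed when only FL1 pool 3 or only DUKsi pool 4 was left out.

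Sparc at 0.0189, Col4a1 at 0.0224 and the low Col5a1 probe set at 0.0251 were the members just outside the threshold by adjusted p, and Lox at 0.00426 was just inside it. The pools of the lines did not overlap, with FL1 higher, at 5 matrix probe sets (5.26%, against 2.24% of all), which belong to Aebp1 (both), Bgn, Col4a1 and Sparc. They did not overlap, with FL1 lower, at 4 (4.21%, against 2.39% of all): Col9a2, Col5a1, Col20a1 and Lama4. The last 2 genes were named after their values were seen. Their log2 fold changes were −0.48 ± 0.134 and −0.39 ± 0.112 at mean signals of 117 and 161 (SE; limma, adjusted p = 0.0446 and 0.0474). The brightest Lama4 probe set, which stands for the gene, had −0.09 ± 0.0955 (SE; limma, adjusted p = 0.666), and its pools overlapped.

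Counts in the related lists are of genes at their brightest probe set, at which 2.08% of all 12393 genes rose and 1.65% fell. Of 20 genes that make, modify and cut procollagen, 1 rose, none fell, and the median log2 fold change was 0.02. Pcolce, an enhancer of the protease that removes the C-terminal propeptide of procollagen, had signals of 2889 to 4112 in FL1 and 2135 to 2787 in DUKsi, without overlap, and a log2 fold change of 0.51 ± 0.0905 (SE; limma, adjusted p = 0.00202). Its second probe set had 0.69 ± 0.0906 (SE; limma, adjusted p = 0.000162). Pcolce, and Tnc, Sparcl1, Myl9, Ptgfr, Cdh2 and Upk3b in the lists that follow, are genes the study itself listed from these samples, so their direction is not independent evidence. The same holds for Cyp11a1, Ccnd2, Inhbb and Rgs5 in the marker lists, which the study also reported as differing. For Rgs5, however, the study found that its qPCR and array values were not associated.

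Of 23 matrix receptors, none rose and 3 fell at the probe set that stands for the gene (median −0.10). Itga6, an integrin chain that binds laminins, had signals of 1271 to 1411 in FL1 and 1554 to 1647 in DUKsi, a log2 fold change of −0.27 ± 0.0532 (SE; limma, adjusted p = 0.00501). Itga8, an integrin chain of mesenchymal and smooth muscle cells, had −0.64 ± 0.134 (SE; limma, adjusted p = 0.0079). FL1 and DUKsi pools overlapped for neither integrin. Sdc4, a heparan sulfate proteoglycan of the cell surface, was read in opposite directions: −0.77 ± 0.160 at its brighter probe set (SE; limma, adjusted p = 0.00723) and 1.30 ± 0.168 at the other (SE; limma, adjusted p = 0.000135), so its direction is uncertain.

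Among 30 other matrix proteins 2 rose and 2 fell (median −0.07). Tnc, which encodes the adhesion-modulating tenascin C, had signals of 821 to 1086 in FL1 and 447 to 818 in DUKsi, a log2 fold change of 0.79 ± 0.135 (SE; limma, adjusted p = 0.00164). Ecm1 had 0.70 ± 0.147 (SE; limma, adjusted p = 0.00727). Sparcl1, a relative of Sparc, went the other way, with signals of 1590 to 2206 in FL1 and 2904 to 3320 in DUKsi and a log2 fold change of −0.72 ± 0.0833 (SE; limma, adjusted p = 4.43e-05). Matn2, a filament-forming matrilin, had −0.35 ± 0.0693 (SE; limma, adjusted p = 0.00498).

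TGF-beta signalling is a general inducer of matrix genes, and of 20 measured ligands, receptors and targets 1 rose and none fell (median 0.04). This was Tgfbi, a secreted TGF-beta target that binds collagen, with signals of 860 to 1337 in FL1 and 591 to 932 in DUKsi and a log2 fold change of 0.66 ± 0.117 (SE; limma, adjusted p = 0.00218). Its other probe sets had 0.79, 0.39 and −0.13.

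Markers of the cells that could hold these transcripts moved unequally. Of 9 stromal and fibroblast markers 1 rose and none fell: Pdgfra, at 0.37 ± 0.0781 (SE; limma, adjusted p = 0.00724), with 0.10 at its other probe set. The list had a median log2 fold change of −0.15, with 4 genes above and 5 below 0. It summed to 8352 to 9471 in FL1 and 7953 to 8592 in DUKsi. Of 10 smooth muscle and pericyte markers 1 fell, Myl9, a myosin light chain, at −0.63 ± 0.0771 (SE; limma, adjusted p = 7.21e-05). This list had a median log2 fold change of −0.06, with 4 genes above and 6 below 0. Its Rgs5 did not pass at the brightest probe set, and dimmer Rgs5 probe sets passed in opposite directions, at −0.98 and 1.03 (limma, adjusted p = 0.00455 and 2.90e-05). Of 10 endothelial markers 1 rose, Pecam1, at 0.58 ± 0.122 (SE; limma, adjusted p = 0.0081), and all 10 log2 fold changes were above 0. Of 8 luteal markers 5 rose, by up to 1.82 ± 0.349 in Ptgfr, the prostaglandin F receptor, and of 8 granulosa markers 3 fell, by up to −1.46 ± 0.0868 in Cdh2, N-cadherin. Theca, oocyte and macrophage lists had 0 of 3, 0 of 7 and 0 of 8 genes higher and 0, 1 and 0 lower, and of 9 markers of surface epithelium and oviduct 1 rose, Upk3b, at 1.29 ± 0.173.

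**Figure D5:**
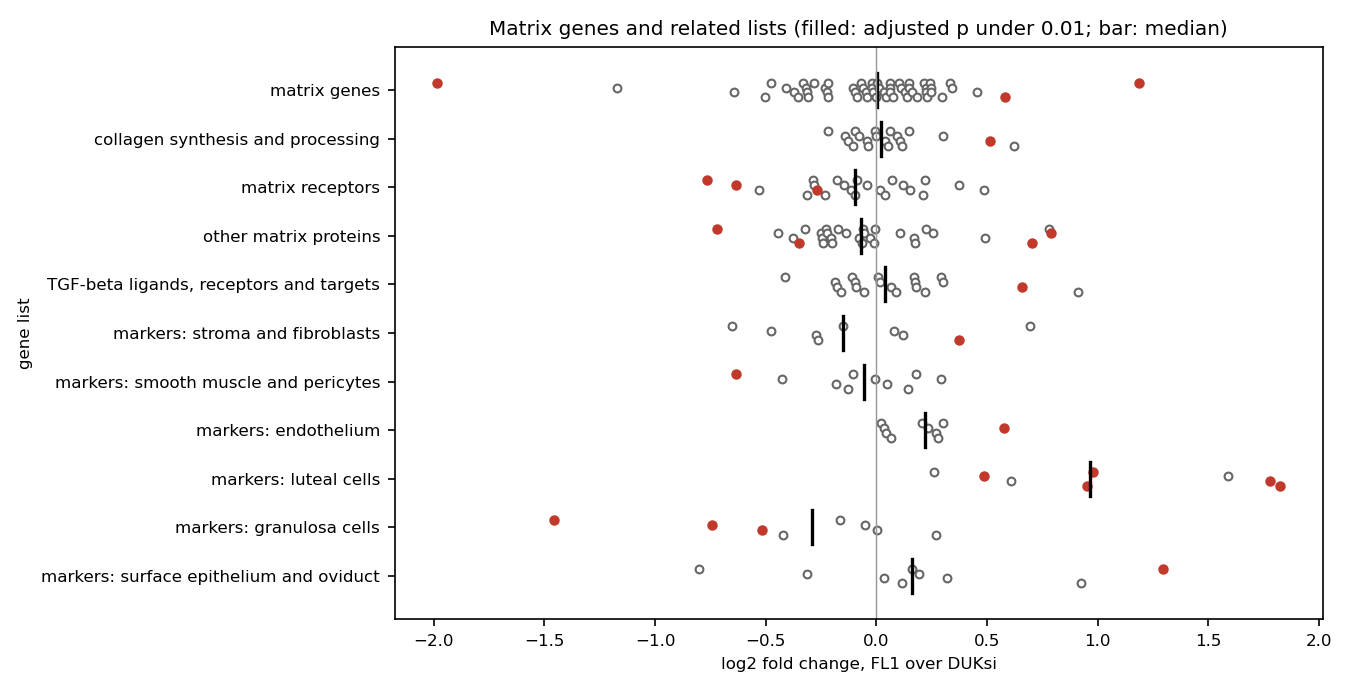
Log2 fold change (FL1 over DUKsi) of the 57 matrix genes and of the genes of 10 related lists, 1 probe set per gene, with filled points at an adjusted p under 0.01 and a bar at each median. The matrix genes centre on 0.00, the luteal markers on 0.96 and the granulosa markers on −0.29.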

How the data were processed

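Whole-ovary RNA of 12 pools was hybridised to 24 MOE 430A arrays. The deposited table holds linear signal intensity values per probe set, which the authors computed with MAS5 (named in the submitters' processing notes) and scaled to a common trimmed mean. It holds no detection calls and no authors' comparisons. Here the 2 technical arrays of each pool were averaged, 64 control probe sets were left out, and log2 signals of 22626 probe sets were compared between 6 FL1 and 6 DUKsi pools with limma 3.58.1 (R 4.3.3; eBayes with a trend; Benjamini-Hochberg adjustment). No filter or added constant was used in the main comparison. A probe set passed at an adjusted p under 0.01, and the methods' 1.5-fold limit on the ratio of means was applied as well where stated. The number of arrays limits the precision.

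Gene names came from the platform annotation: 20380 probe sets had 1 gene, 691 several and 1555 none, and probe sets with several genes were not used for named genes. A gene was represented by its brightest probe set over 12 pools. Differences between probe sets of 1 gene and between partner chains were taken within pools on the log2 scale and tested by exact permutation of the pools, with adjustment over 44 and 14 pairs. The pair of Fbn1 and Eln could not be compared.

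The members, gene lists and tests were chosen with earlier results of these data known. Named were genes that passed, the 2 brightest genes of each class, the 3 nearest to the threshold, up to 4 genes per related list, 4 genes picked by the study, and genes with unequal probe sets. Upstream sequences came from RefSeq on GRCm38.p6. The limma script was tested on simulated data. Alternatives were either technical array alone, 24 single arrays with a random pool effect, quantile or median scaling, an added constant of 48.4, leaving out the dimmest 40% of probe sets, the methods' t-test, no trend, pool number as a block, the beta-actin ratio as a covariate, other thresholds, the mean of a gene's probe sets, and each pool left out.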

Additional observations from a re-analysis of the deposited data

Results flagged for a closer look

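Over 68 groups of 6 pools (34 named probe sets in each line), 1 pool was set apart by more than Dixon's 95% criterion, and chance would set apart about 1 group in 20. It was DUKsi pool 4 for Eln, with a signal of 1111 against 458 to 533 in the other DUKsi pools. Ovgp1 at 3462 and the summed markers of surface epithelium and oviduct at 7892 were also highest in that pool, and their part in the Eln value was not tested.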

How the results depend on the processing

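With an adjusted p under 0.01, 3 matrix probe sets were higher in FL1, 1 was lower, 764 of the whole array passed, and the median log2 fold change of the matrix genes was 0.00. The first array of each pool alone gave 0 lower, and the second 468 over the whole array. The 24 single arrays with a random pool effect gave 7 higher, 4 lower and 1278 in all. Quantile normalization gave 2 lower. Arrays scaled to the same median gave 7 higher and a median of 0.0931, while the median of all genes went from −0.05 to 0.04. Without the dimmest 40% of probe sets, 5 were higher and 0 lower, with a median of 0.0675, and Col9a2 was among those removed. The methods' t-test gave 1 higher, 2 lower and 507 in all, and limma without the trend 1 higher and 3 lower. That t-test was adjusted here by Benjamini-Hochberg, whereas the study used q-values with fold and pairwise-call limits, so 507 is not its own count. The beta-actin ratio as a covariate gave 5 higher and 1241 in all, without Lox (adjusted p = 0.0130, limma). An adjusted p under 0.05 gave 10 higher, 6 lower and 1564 in all. Without FL1 pool 3 and DUKsi pool 4 there were 8 higher and 2 lower, with a median of 0.0804, the added ones being Eln, Sparc (both probe sets), Col4a5, Col4a6 and the low Col5a1 probe set. DUKsi pool 4 held the highest DUKsi values of Eln and Sparc at these probe sets, so leaving it out widens their differences by itself. Leaving out each pool gave 2 to 4 higher, 1 to 3 lower, 573 to 943 in all, and medians of −0.01 to 0.05; 3 lower were found without FL1 pool 2 (with Col5a1 and a dim Lamc1 probe set) and 2 without FL1 pool 3 (with Col5a1). The brighter Aebp1 probe set passed in every setting, and the other one did not on the first array alone, in the t-test or without the trend (adjusted p of 0.0161, 0.0227 and 0.0149). Of 847 log2 fold changes of single probe sets under an alternative, 766 kept their side of the threshold and direction. Another 16 no longer passed, 40 newly passed, 0 reversed, and 25 changed sign without passing in either. Pairs were not part of this count. The cause of these changes was not tested.

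Of 44 probe set pairs, 4 passed, against 0 on the first array alone, 2 on the second and 0 to 5 with each pool left out. With a DUKsi pool left out, the Aebp1 and Col5a1 pairs that no longer passed had p = 0.00433, 2 of 462 regroupings (exact permutation test). The Col11a1 pair no longer passed in the same settings, nor on either technical array alone (adjusted p = 0.0952 to 0.106, exact permutation test). Of 14 partner pairs, 0 passed (exact permutation test), against 1 on the first array alone and 0 to 2 with each pool left out. Pool numbers as a replicate block gave 3 higher, 1 lower and 564 in all with a median of 0.00, and samples with the same number correlated at −0.264 to 0.167, so the numbers did not pair the pools. Dim signals limit the statements on Col9a2 and on the 14 matrix probe sets with mean signals under 48.4.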
